A study of Mus musculus with 6 samples.

Results

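The Sertoli cell genes described here are 36 genes chosen for what they are known for in Sertoli cells: transcription factors, hormone receptors and hormone responsive genes, secreted products, structural proteins, and enzymes or carriers. They were taken by name, whatever their level on the arrays, but with earlier results of these data known. They are 36 of the 16947 genes that could be tested. RNA of whole testis was measured in 6 male C57BL/6J mice aged 10 weeks, with 1 array per mouse. Of these mice 3 carried the TAp73 knockout and 3 were wild type. TAp73 is the form of the p53-related protein p73 that holds the transactivation domain, and it is made from the gene Trp73. The labels do not say how the knockout was made or whether the mice were littermates. The study's stated subject is the adhesion and maturation of sperm cells, and the comparison asks which transcripts differ in a testis without TAp73.

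Sertoli cells are the somatic cells of the seminiferous tubule. They hold the germ cells in their folds, seal the tubule with tight junctions, and answer to follicle-stimulating hormone and to testosterone. Their identity rests on a small group of transcription factors such as SOX9, GATA4 and WT1, and they secrete transport proteins, protease inhibitors and growth factors into the tubule.

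All 36 genes were read by at least 1 probe. There were 45 probes in all, and every probe was well above background on all 6 arrays. For 28 genes there was 1 probe and for 8 genes there were several, and then the brightest stands for the gene and the others are named where their sign or call differed. Values are given as scaled signal, the deposited processed signal of the spot brought to a common 75th percentile over the 6 arrays, in the order of replicates 1 to 3. Differences are given as log2 knockout minus wild type, and SE is the standard error of that difference. A gene is called where limma's adjusted p, computed over all 31801 tested probes, is under 0.05. Signal depends on the probe, so levels of different genes were not compared.

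Some properties of the arrays touch these genes. Between 74.4% and 84.4% of probes were well above background on each array, and 1.59% to 4.45% of probes were saturated. The targeted gene went with the labels, but by an amount that depended on the probe. The brightest Trp73 probe, A_52_P410636, read 940, 933 and 972 in wild type and 544, 445 and 447 in knockout (-0.99). Probe A_55_P1988133 differed by -3.21. The largest difference was that of probe A_52_P193555, which read 528, 524 and 537 in wild type and 16.5, 5.77 and 5.86 in knockout (well above background on 1 of those 3). Knockout replicate 1 stood apart, with a score of -66.2 on the first principal component where the others had -4.91 to 30.8. That array also held regions in which most spots were dim: 20 small tiles with 1312 spots (3.05% of its spots) were low, against 8 tiles on knockout replicate 2, 5 on wild type replicate 1 and 0 on the other 3 arrays. A tile was called low where over 15% of its spots read over 2-fold below the median of the other arrays. None of the spots of the 7 genes called below lay in such a region. Knockout replicates 1 and 2 and wild type replicates 1 and 3 shared a slide, and the other two arrays shared the second. In the authors' value table the group labels are the other way round: each scanner array labelled knockout correlated best with a table column labelled wild type, and the reverse, at 0.968 to 0.994, against -0.403 to -0.271 with the column of its own label. Directions below follow the scanner files, and they turn around under the table's labels.

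**Figure D1:**
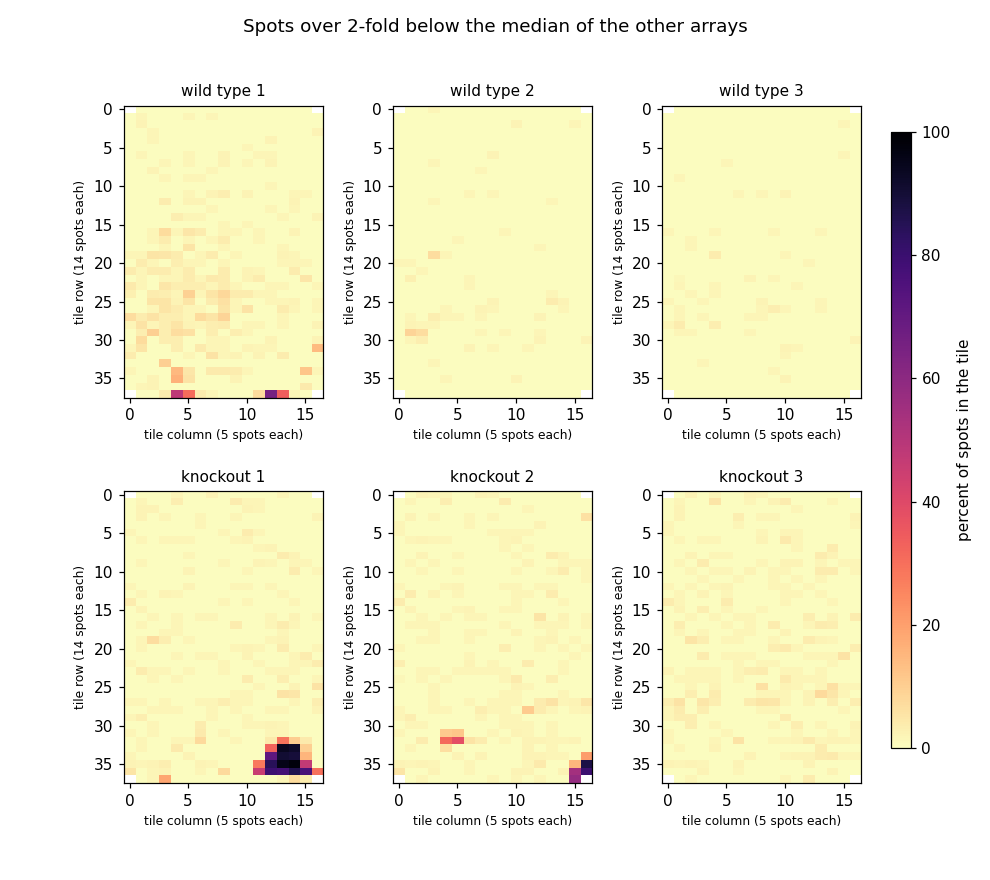
Share of spots that read over 2-fold below the median of the other arrays, in tiles of 14 rows and 5 columns, drawn at their place on each of the 6 arrays (axes: tile row and tile column; colour: percent of spots in the tile). Dark patches stand on knockout replicate 1 (up to 97.9% of a tile's spots), knockout replicate 2 (up to 87.2%) and wild type replicate 1 (up to 65.4%), while no tile exceeded 8.77% on the other 3 arrays.

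In the knockout testes 7 of the 36 Sertoli cell genes were lower and 0 were higher. The lower genes were Sox9, Gata1, Vim, Aard, Shbg, Fabp5 and Ctnnal1, with wild type levels 1.36 to 1.96 times the knockout levels. Over all tested genes 3.53% were called lower and 0.218% higher; over all tested probes the shares were 2.64% and 0.248%. An unadjusted p under 0.05 was found for 23 of the 36 in the lower and 1 in the higher direction, beside 13.6% and 12.0% of all tested genes. In 22 of the 36 every knockout array lay below every wild type array, against 16.0% of all tested genes, and in 2 (Rhox8 and Abca5) every knockout array lay above, against 19.2%. The difference was below 0 for 30 of the 36 genes, against 42.2% of all tested genes, and above 0 for 6, against 57.8%. Since the list was made with earlier results of these data known, these shares describe it and are not a test. In whole testis fewer Sertoli cells and less RNA per Sertoli cell cannot be told apart.

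The number of calls rested on all 6 arrays. It was 6 without knockout replicate 1, 0 without knockout replicate 2, 1 without knockout replicate 3, 3 without wild type replicate 1, 1 without wild type replicate 2 and 1 without wild type replicate 3. Shbg was called in 5 of these 6 fits, Ctnnal1 and Fabp5 in 2 each, Sox9 and Vim in 1 each, and Gata1 and Aard in none. With slide as a block 3 genes were called (Ctnnal1, Shbg and Sox9), and on the first slide alone, with 2 arrays in each group, 0 were called, although 16 were lower at an unadjusted p under 0.05. With another background correction (normexp) 0 were called and 13 were lower at an unadjusted p under 0.05.

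**Figure D2:**
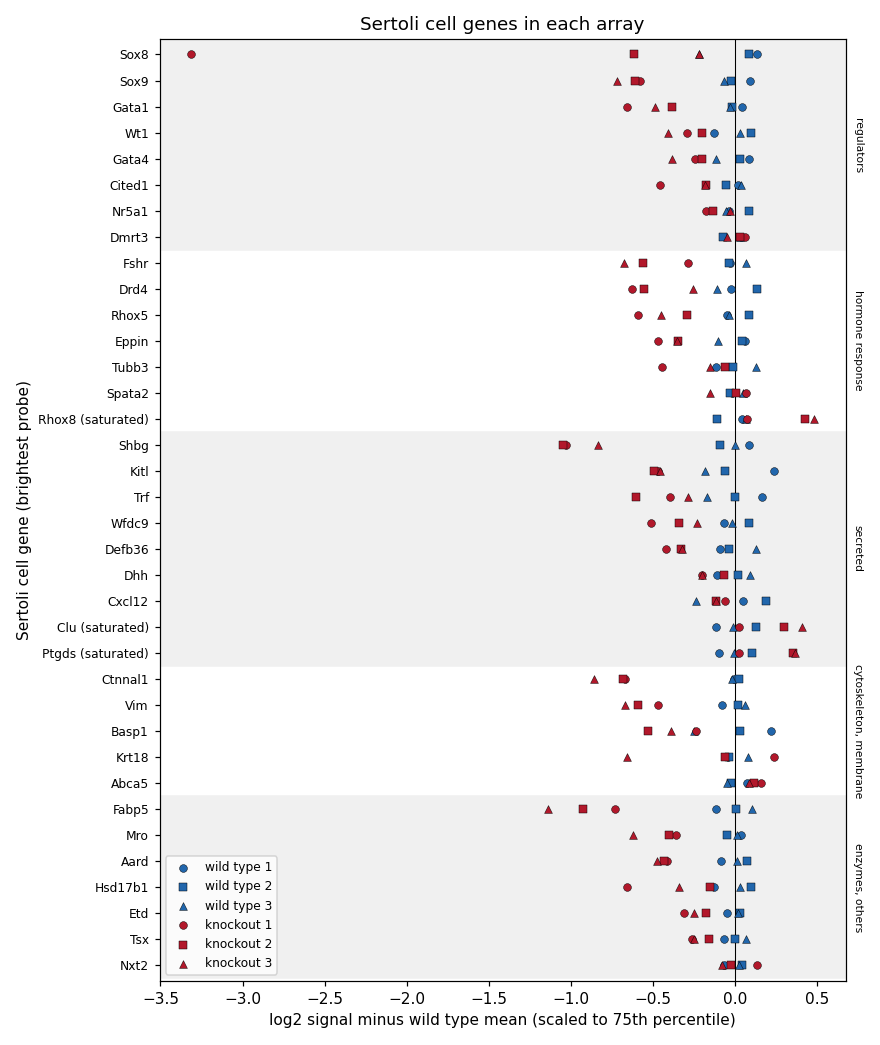
Log2 signal of each of the 36 genes in each of the 6 arrays, minus the wild type mean of that gene (horizontal axis), with genes grouped by role (vertical axis), wild type arrays in blue and knockout arrays in red. The knockout points lie left of the wild type points in 22 genes, the knockout means of the 3 saturated genes lie to the right (Rhox8 alone of these without overlap), and the Sox8 point of knockout replicate 1 stands far to the left.

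The 33 genes that were saturated on no array had a median difference of -0.38, while all unsaturated tested genes had a median of 0.03. Of these 33 genes 8 (24.2%) had a difference below -0.5, as had 7.72% of all unsaturated genes. Among all unsaturated genes 11.6% lay at or below the median of the Sertoli cell genes. All 3 knockout arrays showed the shift. The median deviation of the 33 genes from their wild type mean was -0.41 in knockout replicate 1, -0.33 in knockout replicate 2 and -0.34 in knockout replicate 3, and between -0.02 and 0.02 in the wild type arrays. Below the lowest wild type array lay 26, 26 and 28 of the 33 genes in knockout replicates 1, 2 and 3. The share over all tested genes was not computed for single arrays. For all 3 knockout arrays at once the count was 22 of the 33, beside 2705 of the 15853 unsaturated tested genes. Within the first slide the median difference was -0.38, and for the pair of arrays on the second slide it was -0.39.

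**Figure D3:**
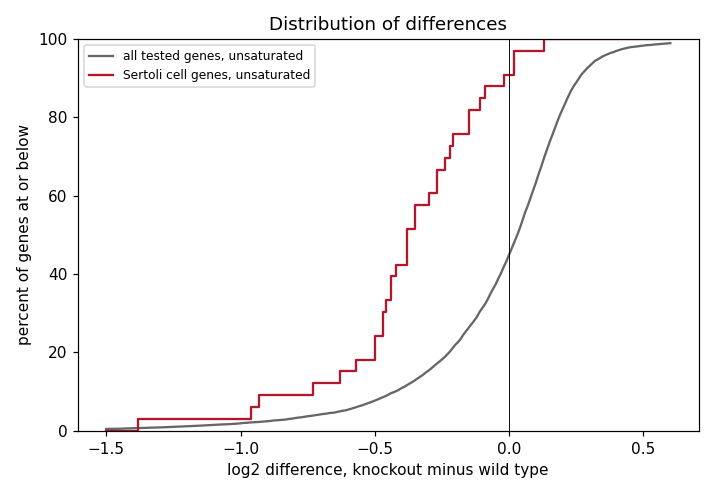
Percent of genes (vertical axis) whose log2 difference, knockout minus wild type, is at or below the value on the horizontal axis, for the 33 unsaturated Sertoli cell genes (red) and all 15853 unsaturated tested genes (grey). The red curve lies left of the grey one, with medians of -0.38 and 0.03.

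Promoters of called genes are shown because these genes were lower together. RefSeq (assembly GRCm38.p6) gave a promoter window for 25 of the 36 genes and for 4 of the 7 called ones. The 250 bases before the start of transcription are printed 5′ to 3′ on the strand of the gene, with matches to the motifs named below in capitals. The Gata1 stretch is chrX:7967911-7968160 on the minus strand, that of Vim is chr2:13574061-13574310 on the plus strand, that of Shbg is chr11:69617906-69618155 on the minus strand and that of Ctnnal1 is chr4:56865212-56865461 on the minus strand.
Gata1: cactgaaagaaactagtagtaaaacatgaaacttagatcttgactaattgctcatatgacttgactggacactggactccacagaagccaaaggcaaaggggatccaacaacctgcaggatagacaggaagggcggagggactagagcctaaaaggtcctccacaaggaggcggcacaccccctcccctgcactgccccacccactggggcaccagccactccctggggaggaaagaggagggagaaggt
Vim: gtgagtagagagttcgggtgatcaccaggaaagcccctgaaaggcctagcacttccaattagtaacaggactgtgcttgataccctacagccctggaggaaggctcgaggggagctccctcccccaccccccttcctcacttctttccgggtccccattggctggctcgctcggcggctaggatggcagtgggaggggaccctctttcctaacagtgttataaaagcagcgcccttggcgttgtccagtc
Shbg: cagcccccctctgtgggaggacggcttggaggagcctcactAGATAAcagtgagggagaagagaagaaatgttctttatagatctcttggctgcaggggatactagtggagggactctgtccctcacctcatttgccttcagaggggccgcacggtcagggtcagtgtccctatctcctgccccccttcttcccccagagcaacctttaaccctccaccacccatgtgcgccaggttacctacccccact
Ctnnal1: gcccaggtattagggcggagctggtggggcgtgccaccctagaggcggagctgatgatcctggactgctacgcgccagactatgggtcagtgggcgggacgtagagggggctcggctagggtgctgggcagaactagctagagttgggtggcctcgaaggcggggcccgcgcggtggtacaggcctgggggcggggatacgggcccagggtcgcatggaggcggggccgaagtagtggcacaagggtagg

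Motifs were searched on both strands in windows of 300 bases, which add 50 bases after the start. The GATA motif AGATAA occurred in Shbg, 209 bases before the start, and in Nxt2, which makes 2 of 25 genes (8%) against 11.2% of all 32851 windows. The SOX motif AACAAT occurred in Rhox5 and Wfdc9, 2 of 25 genes against 10.72% of windows. The NR5A1 motif CAAGGTCA occurred in Cited1 alone, against 1.56% of windows. The cAMP response element TGACGTCA, in 1.79% of windows, matched none of the 25 genes. Of the 4 printed promoters the Shbg promoter alone held a match to any of these letters.

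Among the 8 transcription factors and regulators 2 fell, Sox9 and Gata1, 0 rose, and the median difference was -0.29. Sox9, an SRY-related factor that drives and maintains Sertoli cell fate, read 1483, 1374 and 1329 in wild type and 934, 914 and 847 in knockout. The groups stood clear of each other, and wild type was 1.55-fold higher (difference -0.64, SE 0.08, adjusted p = 0.0186). Its probe was spotted 10 times on each array, with a standard deviation between spots of 0.045 to 0.11 on the log2 scale. Gata1, a zinc finger factor that Sertoli cells share with blood precursors, read 6896, 6610 and 6560 in wild type and 4248, 5130 and 4780 in knockout. All knockout arrays were lower, knockout replicate 1 most, and wild type was 1.42-fold higher (difference -0.51, SE 0.09, adjusted p = 0.0464). Gata1 lost its call when any single array was left out, when arrays were centred on their median, and with slide as a block. Its adjusted p ran from 0.0325 to 0.537 over the 16 alternatives that gave a test.

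The other 6 regulators did not pass the test. Gata4, a zinc finger factor needed for the embryonic gonad, read 5416, 5215 and 4716 in wild type and 4317, 4451 and 3912 in knockout (-0.28, SE 0.09, adjusted p = 0.158). Wt1, the Wilms tumour factor that keeps Sertoli cells in their fate, read 16183, 18867 and 18039 in wild type and 14419, 15349 and 13336 in knockout (-0.30, SE 0.09, adjusted p = 0.145). In both genes the groups did not overlap, although the calls failed. Nr5a1, a nuclear receptor that steroid-producing cells use as well, overlapped, with 28370, 30841 and 28015 in wild type and 25701, 26535 and 28487 in knockout (-0.11, adjusted p = 0.411). Dmrt3, a factor of the doublesex family, was at nearly the same level in both groups, 196, 181 and 195 against 199, 195 and 184 (0.02, 95% interval -0.16 to 0.19), but after normexp its difference was 0.47 (adjusted p = 0.544). Cited1, a transcriptional coregulator, read 47715, 45486 and 48352 in wild type and 34402, 41752 and 41610 in knockout (-0.27, adjusted p = 0.186), with knockout replicate 1 lowest.

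Sox8, a close relative of Sox9, had the largest difference of all 36 genes and rests on 1 spot. It read 357, 345 and 280 in wild type and 32.7, 213 and 280 in knockout. The spot of knockout replicate 1 lay in a low region of its array, and knockout replicate 3 matched wild type replicate 3. The difference was -1.38 (SE 0.79, adjusted p = 0.318), and with spots of low regions left out it was -0.42 (adjusted p = 0.227) from 2 knockout arrays.

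None of the 7 hormone receptor and hormone responsive genes was called in either direction, at a median difference of -0.39, and at an unadjusted p under 0.05 there were 4 lower and 1 higher, the saturated Rhox8. Fshr, the receptor for follicle-stimulating hormone, read 640, 638 and 685 in wild type and 536, 444 and 410 in knockout. Every knockout array was lower, but the difference of -0.51 (SE 0.11) had an adjusted p of 0.0775. With the low regions left out that p was 0.0465, and without knockout replicate 1 Fshr was called too. Rhox5, an androgen responsive homeobox gene of the X chromosome, read 30747, 33866 and 31035 in wild type and 21183, 26046 and 23308 in knockout (-0.44, SE 0.10, adjusted p = 0.0774). Eppin, a protease inhibitor that coats sperm, read 31609, 31166 and 28125 in wild type and 21881, 23805 and 23721 in knockout (-0.39, SE 0.08, adjusted p = 0.0662). Drd4, a dopamine receptor, read 5485, 6105 and 5151 in wild type and 3611, 3792 and 4672 in knockout (-0.48, SE 0.12, adjusted p = 0.104). Fshr, Rhox5, Eppin and Drd4 shared a pattern of groups without overlap and adjusted p-values of 0.0662 to 0.104. The remaining unsaturated genes of this role overlapped between groups. Tubb3, a tubulin, read 8382, 8993 and 9935 in wild type and 6677, 8720 and 8174 in knockout (-0.22, adjusted p = 0.323). Spata2, an adaptor of a deubiquitinating enzyme, read 8409, 8321 and 8808 in wild type and 8930, 8551 and 7654 in knockout (-0.03, 95% interval -0.23 to 0.18), and of its other probes A_55_P2152605 had the opposite sign (0.02).

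Of the 9 secreted products 1 fell, Shbg, and the median difference of the role was -0.36. Shbg, known in the testis as androgen-binding protein, which carries testosterone into the tubule fluid, read 4631, 4100 and 4373 in wild type and 2137, 2114 and 2451 in knockout. The wild type level was 1.96-fold higher, the largest called difference among the 36 genes (-0.97, SE 0.09, adjusted p = 0.00912). The lowest wild type array stood far from the highest knockout array. Defb36, a beta-defensin, read 52290, 54376 and 60805 in wild type and 41593, 44314 and 44567 in knockout by its brightest probe (-0.36, adjusted p = 0.0874). Its other probe, A_52_P58990, read 22062, 23176 and 24864 against 16625, 14954 and 15317 and passed the test (-0.58, SE 0.08, adjusted p = 0.0258). So Defb36 is among the 9 genes with any probe called, and not among the 7 called by the brightest probe.

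The other unsaturated secreted products were not called. Kitl, the ligand of the KIT receptor on spermatogonia, read 516, 419 and 386 in wild type and 316, 310 and 319 in knockout (-0.47, adjusted p = 0.0963), and after normexp the difference was -0.02. Trf, transferrin, which passes iron to germ cells, read 7777, 6956 and 6182 in wild type and 5267, 4564 and 5700 in knockout (-0.43, adjusted p = 0.125). Its second probe differed by -1.42, but the spot of knockout replicate 1 lay in a low region, and without it the difference was -0.19. Wfdc9, of a family of small protease inhibitors, was at -0.36 (adjusted p = 0.109) and at -0.04 after normexp. In Kitl, Trf and Wfdc9 the groups did not overlap. Dhh, the hedgehog ligand that Sertoli cells send to Leydig and peritubular cells, read 6993, 7621 and 8021 in wild type and 6569, 7188 and 6562 in knockout (-0.15, adjusted p = 0.305). Cxcl12, a chemokine that attracts stem cells of the germ line, was at -0.10 (95% interval -0.39 to 0.19). Both genes overlapped between groups.

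Of the 5 cytoskeleton and membrane genes 2 fell, Vim and Ctnnal1, at a median of -0.38 for the role. Vim, vimentin, the intermediate filament of the Sertoli cell, read 24259, 26009 and 26785 in wild type and 18554, 17017 and 16158 in knockout. The groups did not overlap, and wild type was on average 1.49-fold higher (-0.58, SE 0.08, adjusted p = 0.028). Vimentin is made by other cells of mesenchymal origin as well. Ctnnal1, alpha-catulin, a relative of the alpha-catenins of cell junctions, read 5500, 5607 and 5454 in wild type and 3470, 3446 and 3048 in knockout. Wild type was 1.67-fold higher (-0.74, SE 0.08, adjusted p = 0.0124), and its second, dimmer probe was at -0.85 (adjusted p = 0.086). Ctnnal1 lies on chromosome 4, as does Trp73, with 767 of the 1065 tested genes of that chromosome between them. Basp1, a membrane-bound signalling protein, was at -0.38 (adjusted p = 0.191) and at -0.29 with a low-region spot of wild type replicate 1 left out. That spot was not itself dim, at 0.47 log2 units above the median of the other arrays. Krt18, a keratin, read 286, 287 and 311 in wild type and 347, 283 and 187 in knockout (-0.16, adjusted p = 0.674), the knockout arrays lying on both sides of wild type. Abca5, a lipid transporter, read 1523, 1424 and 1401 in wild type and 1620, 1572 and 1537 in knockout, with every knockout array higher by a small margin (0.12, SE 0.07, adjusted p = 0.33).

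**Figure D4:**
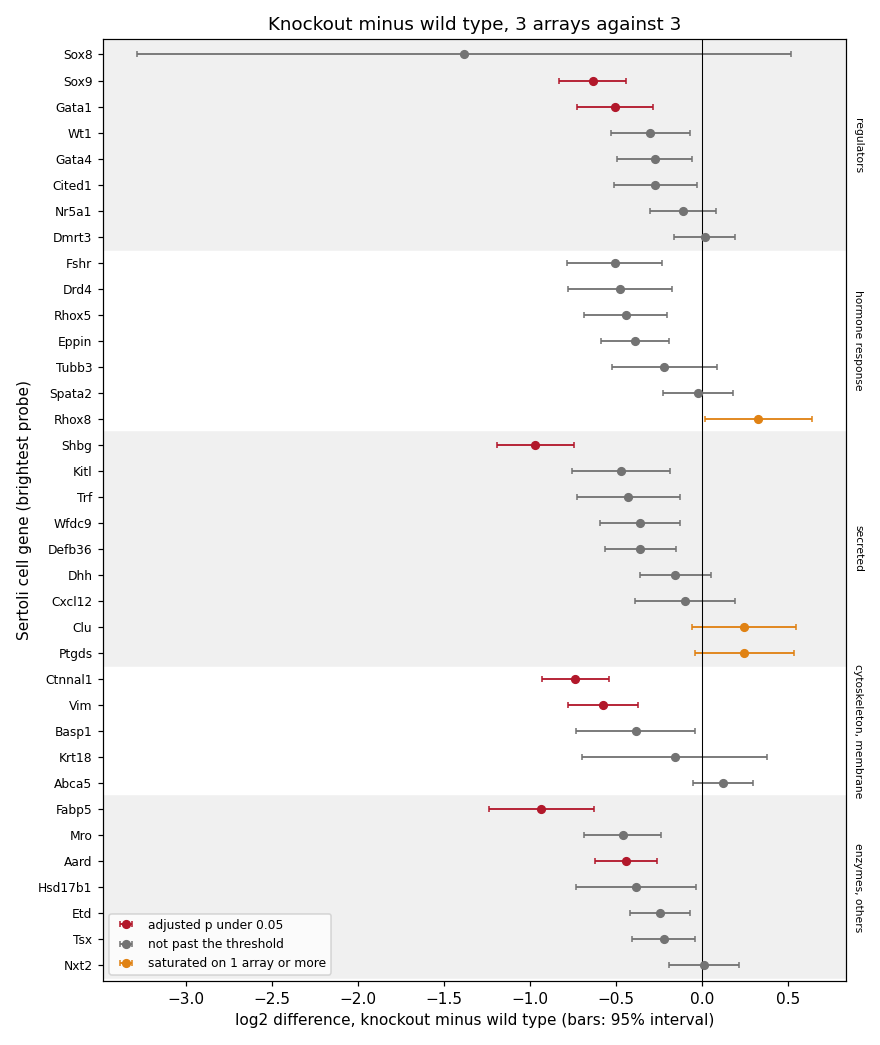
Log2 difference, knockout minus wild type, of each of the 36 genes with its 95% interval from limma (horizontal axis), grouped by role (vertical axis), with called, uncalled and saturated genes marked apart. The 7 called genes run from -0.97 for Shbg to -0.44 for Aard, and the interval of Sox8, from -3.28 to 0.52, is the widest.

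Fabp5 and Aard fell among the 7 enzymes, carriers and other genes, whose median was -0.38. Fabp5, a fatty acid binding protein, read 10922, 11912 and 12749 in wild type and 7135, 6230 and 5365 in knockout. The wild type level was 1.9-fold higher, next to that of Shbg among the calls (-0.93, SE 0.12, adjusted p = 0.0209). Aard, named for a domain rich in alanine and arginine, read 33998, 38081 and 36385 in wild type and 27124, 26739 and 25938 in knockout. It was the smallest called difference, and its knockout arrays lay close together (-0.44, SE 0.07, adjusted p = 0.0401). Mro, maestro, a gene first described in the embryonic testis, read 5125, 4833 and 5044 in wild type and 3900, 3787 and 3250 in knockout (-0.46, SE 0.09, adjusted p = 0.0615). Its dimmer probe, A_66_P116461, also at -0.46, passed the test (SE 0.07, adjusted p = 0.0264), which makes Mro the second gene called by a dimmer probe alone. Both probes passed with the low regions left out (adjusted p = 0.0371 for the brighter). Hsd17b1, the enzyme that makes estradiol from estrone, was at -0.38 (adjusted p = 0.193), and it was at 0.38 after normexp. Etd and Tsx, both on the X chromosome, were at -0.25 (adjusted p = 0.129) and -0.22 (adjusted p = 0.163). In Hsd17b1, Etd and Tsx no knockout array reached the lowest wild type array. Nxt2, of the RNA export machinery, was at 0.01 with overlapping groups (95% interval -0.19 to 0.22).

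The 3 saturated genes are given apart, since a saturated spot cannot show how far a level differs. Clu was saturated on all 6 arrays, Ptgds on 2 arrays of each group, and Rhox8 on 2 wild type arrays and 1 knockout array. Clu, clusterin, a secreted chaperone, Ptgds, the prostaglandin D synthase, and Rhox8, an X-linked homeobox gene, read 47557 to 61549 scaled units in wild type and 53930 to 74682 in knockout. Their differences were 0.24, 0.25 and 0.33, and none was called (adjusted p = 0.276, 0.259 and 0.204). Before scaling, the processed signals of these probes differed by -0.01, -0.01 and 0.07. The 75th percentile by which arrays were scaled was 0.26 log2 units higher for the wild type arrays, and the 1094 genes saturated on at least 1 array had a median scaled difference of 0.24. Rhox8 had a dimmer, unsaturated probe as well. It read 9927, 18874 and 17167 in wild type and 13693, 13817 and 12712 in knockout (-0.14). The spot of wild type replicate 1 lay in a low region, and without it that difference was -0.44 (adjusted p = 0.0663).

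On the X chromosome lie 7 of the 36 genes (Gata1, Rhox5, Rhox8, Tsx, Etd, Cited1 and Nxt2). Gata1 alone of them was called, 1 of 7, where 4.65% of all tested genes of that chromosome were called lower and 0.15% higher, and their median was -0.25, beside -0.07 for those 667 genes. The 29 genes on other chromosomes had 6 calls and a median of -0.38.

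Another 40 genes known from Sertoli cells were listed, none of them among the 36, and 36 of these 40 could be measured. Of these 3 fell, Serpina5 and Mertk among them, and 0 rose, beside 3.53% and 0.218% of all tested genes. The median was -0.16. Saturated on at least 1 array were 4 of the 36, and the median of the 32 unsaturated genes was -0.22. The difference was below 0 for 24 of the 36 and above 0 for 12, beside 42.2% and 57.8% of all tested genes. At an unadjusted p under 0.05 there were 12 lower and 4 higher, beside 13.6% and 12.0% of all tested genes. The groups stood apart in 14 in the lower and 6 in the higher direction, beside 16.0% and 19.2% of all tested genes. Serpina5, a serine protease inhibitor, read 22666, 24910 and 26804 in wild type and 14749, 15978 and 15558 in knockout (-0.68, SE 0.09, adjusted p = 0.0197). Mertk, a receptor by which Sertoli cells take up dying germ cells, read 1479, 1505 and 1235 in wild type and 909, 795 and 819 in knockout (-0.74, SE 0.11, adjusted p = 0.0265). The groups were apart in both genes. The number of calls was 2 without knockout replicate 1, 0 without knockout replicate 2 or wild type replicate 2, and 1 without each of the remaining arrays, and it was 0 with slide as a block.

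Inha, Amh and Cldn11, named whatever their values, were not called. Inha, the alpha subunit of inhibin, read 27534, 27241 and 28372 in wild type and 23596, 22593 and 20816 in knockout (-0.31, adjusted p = 0.0931). Amh, the anti-Müllerian hormone, high in immature Sertoli cells, read 109, 93.2 and 75.8 in wild type and 71, 76.2 and 73.7 in knockout (-0.32, adjusted p = 0.233). Cldn11, the main claudin of the Sertoli tight junction, read 25904, 26122 and 22706 in wild type and 16894, 7276 and 16513 in knockout (-0.97, adjusted p = 0.164). With its low-region spot on knockout replicate 2 left out it passed the test at -0.59 (adjusted p = 0.0383). Cldn3, another claudin, went the other way, with 2196, 2395 and 1678 in wild type and 3276, 3255 and 3722 in knockout (0.72, SE 0.15, adjusted p = 0.0628). The other genes higher at an unadjusted p under 0.05 were Emx2 (0.39), Pdgfa (0.29) and Ctsl (0.27), with adjusted p = 0.131, 0.199 and 0.203. Ctsl was saturated on 2 wild type and 3 knockout arrays, so its difference has the limit given above for saturated genes. Cldn3, Emx2, Pdgfa and Ctsl were chosen after their values were seen.

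Markers of other cells of the testis gave the setting of these values. The 8 markers taken for Sertoli cells, 6 of them among the 36 genes, summed to 88452 to 95191 scaled units in wild type and 62423 to 65830 in knockout. The sum of knockout replicate 2 held the low-region spot of Cldn11, and without that gene the sums were 63052 to 69069 and 47960 to 55147. The 5 spermatocyte markers summed to 77398 to 79644 and 88347 to 91472, with 0 called by limma, 3 higher at an unadjusted p under 0.05, and a median of 0.21. Markers of round and elongating spermatids had medians of 0.23 and 0.27, and 7 of their 10 genes were saturated. The 4 measured macrophage markers summed to 17317 to 18458 in wild type and 10966 to 12218 in knockout, without overlap in any of them, and Cd74 was called lower (-1.11, adjusted p = 0.0124). Of 5 Leydig cell markers Hsd3b1 was called lower (-0.76, adjusted p = 0.0369), while Star was at 0.63 with every knockout array higher (adjusted p = 0.197). The Leydig sums overlapped, at 82071 to 137366 and 58527 to 109573. The lowest knockout sum held a low-region spot of Cyp17a1 on knockout replicate 1. On knockout replicates 2 and 3 Cyp17a1 read 64483 and 64522, within its wild type range of 32661 to 69746. Without that gene the sums were 49411 to 67701 in wild type and 40149 to 45090 in knockout. These sums did not overlap, but they leave out a bright marker that was not lower on those knockout arrays. Sums overlapped for the 4 peritubular markers, at 16653 to 23966 and 22318 to 24304, and for the 4 endothelial ones, at 10566 to 12737 and 11273 to 13760. The 5 spermatogonial markers summed to 57412 to 66309 and 61529 to 67905. Bright probes weigh most in a sum: Acta2, Kdr and Dmrtb1 made up most of these 3 sums. Gene by gene, 0 of these markers were called. The groups stood apart for Cnn1 (higher) among the peritubular markers and Cdh5 (lower) among the endothelial ones. Among the spermatogonial markers they stood apart for Gfra1 (higher). For Kit (lower) they all but touched, at 2750.29 in wild type replicate 1 and 2750.23 in knockout replicate 2. The 2 measured blood markers summed to 22838 to 31283 and 14983 to 25529, and the 2 measured epididymis markers, each well above background on at least 5 of 6 arrays, summed to 82.3 to 102 and 75.4 to 97.2. The part of the number of germ cells or of macrophages in the levels of the Sertoli cell genes was not tested.

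**Figure D5:**
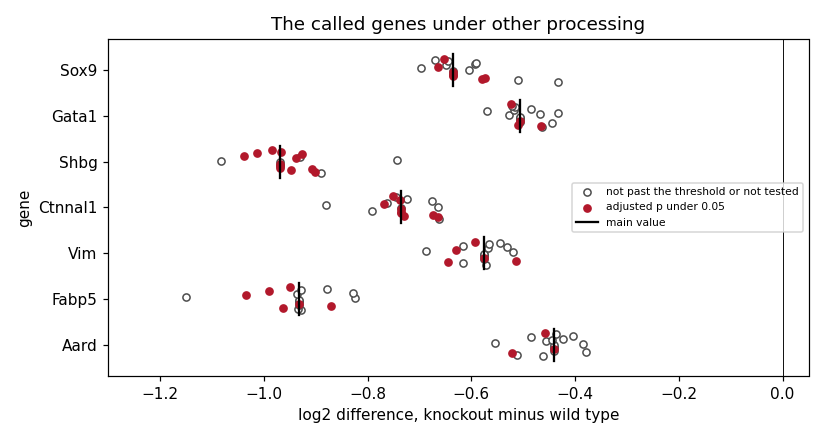
Log2 difference, knockout minus wild type, of each of the 7 called genes (vertical axis) under 18 alternative settings of the scanner data (points; filled where adjusted p was under 0.05 in the 16 settings that gave a test), with the reported value as a black line. Every point lies below 0; Shbg was called in 12 of the 16, Ctnnal1 in 9, Sox9 in 7, Fabp5 in 6, Vim in 5, Gata1 in 4 and Aard in 3.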

How the data were processed

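RNA of whole testis was measured on 1-colour Agilent arrays. Per the file headers, the authors deposited spot intensity from Feature Extraction 10.7.3.1, on a design built on mm9, and its background-subtracted processed signal was used. The submitters' processing notes name limma, without a version. The authors' value table holds intensity too, and its normalization was not given in the sources used here.

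Control spots (1377 of 44397) were left out, and 163 to 280 spots per array marked as outliers were set to missing. Log2 signals were averaged per probe and set relative to the 75th percentile of their array. Of 39429 probes, 31801 were tested: well above background on at least 3 of 6 arrays, with at least 2 values per group. Accessions were matched to RefSeq symbols (GRCm38.p6), which named 26055 probes and left 13374 unnamed. Groups were compared with limma 3.58.1 in R 4.3.3 (a two-sided test with no term but group, Benjamini-Hochberg over all tested probes, threshold 0.05), checked on simulated data. Replicates are separate mice, and 3 arrays a group limit the precision.

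Members, lists and tests were chosen with earlier results of these data known. Values are given for every called gene, every unsaturated regulator and hormone gene, and, among the other Sertoli genes, the called ones and Amh, Inha and Cldn11; remaining values were chosen after they were seen. Some listed items are not reported here. Alternatives changed background correction, scaling, filter, probe, slide, replicate block and arrays. Normexp used median spot signals, the column at hand, where mean signals had been planned. Leaving out low regions, and counting any probe, were chosen after seeing the data.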

Additional observations from a re-analysis of the deposited data

How the results depend on the processing

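Under every alternative run on the scanner files the 7 called genes kept their direction, and 0 Sertoli cell genes were called higher. The number called lower, 7 as reported, was 0 after normexp, 3 after normexp with quantile normalization, 10 after quantile normalization alone, 5 with median scaling, 3 with no detection filter, 8 where all 6 arrays had to be well above background, 3 with slide as a block and 0 on the first slide alone. It was 9 with low array regions left out and 9 with any probe counted. Leaving out 1 array at a time gave 0 to 6. Over all tested probes, 838 lower and 79 higher as reported, calls fell to 0 and 0 after normexp. The other Sertoli genes, 3 lower and 0 higher as reported, had 0 lower after normexp, with slide as a block and on the first slide alone, 1 lower with no detection filter, and 0 to 2 lower without 1 array. They had 1 higher with all 6 arrays required or low regions left out; in the latter it was Cldn3 (0.71, adjusted p = 0.0499), named after its value was seen.

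The median over unsaturated genes, -0.38 as reported, was -0.29 after normexp (all unsaturated genes 0.15), -0.34 after normexp with quantile normalization and -0.32 with median scaling, and -0.384 to -0.349 without 1 array. The value table under its own labels gave 0 lower and 10 higher, a median of 0.39, and 0 lower and 4 higher among the other Sertoli genes, which is the turned direction of its labels.

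Of single uncalled genes, Sox8 (0.0357), Krt18 (0.239) and Hsd17b1 (0.385) changed sign after normexp, and Spata2 with median scaling (0.037). Normexp also moved Dmrt3 to 0.471, Kitl to -0.0222, Wfdc9 to -0.0384, Fshr to -0.212 and Cxcl12 to -0.0161, without a change of sign. On the first slide Krt18 (0.072), Cxcl12 (0.0048) and Spata2 (0.022) did, and on the second Nxt2 (-0.119). Without 1 array at a time Krt18 ran from -0.359 to 0.0894, Spata2 from -0.073 to 0.0382, Dmrt3 from -0.0201 to 0.047 and Nxt2 from -0.0508 to 0.0532. With low regions left out Dmrt3 (-0.00072) and Nxt2 (-0.0060) changed sign. The cause of these changes was not tested.

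With the replicate number of the labels as a block, 0 Sertoli cell genes were called lower, 22 were lower at an unadjusted p under 0.05, and 0 of the other Sertoli genes were called lower. Deviations of arrays with the same number correlated at -0.025, -0.082 and -0.090, and those of arrays with different numbers at -0.019 to 0.095. The 2 arrays of the second slide, knockout replicate 3 and wild type replicate 2, correlated at 0.024. No sign of pairing by number was seen, but a check that did not pick out a shared slide cannot exclude it.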
